A study of Mus musculus with 14 samples.

Results

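The 7 genes described here, Il23r, Il17a, Il17f, Il22, Ahr, Il1r1 and Ccr6, are linked to group 3 innate lymphoid cells (ILC3s) and were measured in sorted lung group 2 innate lymphoid cells (ILC2s). They were chosen by name, with earlier results of these data known, and all 7 were present among the 53278 genes of the deposited count and TPM tables. With all libraries, Il22 was the 1 member that edgeR called higher after IL-33, from 0.578 ± 0.718 to 7.23 ± 3.88 CPM, which are normalised counts scaled to 1e+06 per library (mean ± SD, n = 4 in each group), and Il17f was called as well once stim replicate 3 or unstim replicate 1 was left out. The call of Il22 was lost without unstim replicate 2 or unstim replicate 3. Of all genes tested with all libraries, 16.2% were higher after IL-33. Il23r and Il1r1 were higher in libraries of Blimp-1-deficient ILC2s once a control library dominated by 7 abundant loci was left out. In the same fit 7 of 10 gamma delta T cell markers and 4 of the 10 epithelial and stromal markers tested were higher too, against 8.25% of all genes tested. Ahr had the highest level per gene length among the 7 in unstimulated cells and had log2 fold changes of at most 0.30 by edgeR in both comparisons, with or without the libraries that stood apart. Il17a had at most 14 counts in any library.

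ILC3s are the innate lymphocytes of the type 17 response at barrier surfaces. IL-23, acting through IL-23R, and IL-1β, acting through IL-1R1, drive them to make IL-22 and IL-17. The aryl hydrocarbon receptor AHR senses dietary and microbial ligands and maintains IL-22-producing ILC3s in the gut. CCR6 guides a subset of ILC3s towards its ligand CCL20. ILC2s depend instead on GATA3 and make IL-5 and IL-13, and an ILC2 that gains IL-17 is said to have acquired an ILC3-like state.

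RNA sequencing covered 14 libraries in 2 experiments. The labels number the mice 1 to 4 in both groups of the first experiment and 1 to 3 in both genotypes of the second, and do not say whether the same number in the first experiment marks the same mouse. The study's figure legends describe sorting samples from 2 pooled animals, and whether this holds for the libraries was not stated. In the first, ILC2s from B6 mice were left unstimulated (unstim, n = 4) or received 20 ng/mL of IL-33, an alarmin released by damaged epithelium, for 24 h (stim, n = 4). In the second, ILC2s of the ControlIL7RaCre genotype (WT, n = 3) and of Blimp-1IL7RaCre mice (KO, n = 3) were cultured with IL-33 and IL-25 at 20 ng/mL each for 72 h. The Cre recombinase of these mice is driven from the Il7r gene, which is active in all ILCs, in T cells and in B cells, so that Blimp-1, the repressor encoded by Prdm1, was not deleted in ILC2s alone. All cells were sorted as live, lineage-, CD90.2+ and CD3-, a gate that holds no marker found on ILC2s and absent from ILC3s. The study's methods add IL-2 to the 72 h culture, and the labels give no culture time for the unstimulated cells and no ages. The study's text describes the unstimulated cells in one place as cultured without IL-33 and in another as ex vivo. The effects of IL-33 and of time in culture therefore cannot be told apart if the culture times differed.

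Total counts ranged from 10470125 (stim replicate 3) to 32849428 in the first experiment and from 13570188 (WT replicate 2) to 76448945 in the second. WT replicate 2 had 76.8% of its counts on 7 loci of ribosomal, mitochondrial and repeat RNA, against 0.258% to 4.12% in the other libraries, where stim replicate 3 was the highest. The results of the members are therefore given with and without stim replicate 3 or WT replicate 2. The CPM used here are counts divided by a library size adjusted by trimmed mean of M values (TMM). A count of 0 allows up to 3 counts, which corresponded to 0.0859 to 0.127 CPM in the unstimulated libraries and 0.296 CPM in stim replicate 3. The same floor was 0.0310 to 0.0387 CPM in 5 libraries of the Blimp-1 experiment and 0.731 CPM in WT replicate 2. These floors cover counting error only. Prdm1, the targeted gene, was at 80.7 ± 10.5 CPM in WT and 12.5 ± 1.78 CPM in KO libraries (n = 3 each). All 15 ILC2 markers examined, among them Gata3, Il1rl1 and Il13, were above 3 counts in at least 1 library of every group.

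The genomic sequences of members are shown where a reader can see what the counts rest on. On GRCm38, Il23r lies at chr6:67422932-67491855 on the minus strand and Il22 at chr10:118204942-118210047 on the plus strand. Il17a lies at chr1:20730905-20734496 on the plus strand and Il17f, its neighbour, at chr1:20777146-20790617 on the minus strand. Ahr lies at chr12:35497974-35535038 on the minus strand, Il1r1 at chr1:40225080-40317257 and Ccr6 at chr17:8236043-8257141, both on the plus strand. All are protein-coding genes. Cores of the elements bound by AHR and by Blimp-1 were searched on both strands in the RefSeq promoters of GRCm38.p6, from 250 bases before to 50 bases after each start. Ahr was not matched in the promoter table. Among members, the AHR core GCGTG was found in both windows of Il1r1 alone, against 32.4% of all 32851 promoter windows, and the Blimp-1 core GTGAAAG in 1 of the 2 windows of Ccr6 alone, against 4.24%. The 2 cores do not share letters by overlap in these windows. These are matches of letters in a window, not measured binding. The 250 bases upstream of that Ccr6 start (chr17:8242276-8242525, plus strand) are shown because they hold the one Blimp-1 core among the members, in capitals as read from the other strand, at 216 bases before the start.

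Ccr6 promoter: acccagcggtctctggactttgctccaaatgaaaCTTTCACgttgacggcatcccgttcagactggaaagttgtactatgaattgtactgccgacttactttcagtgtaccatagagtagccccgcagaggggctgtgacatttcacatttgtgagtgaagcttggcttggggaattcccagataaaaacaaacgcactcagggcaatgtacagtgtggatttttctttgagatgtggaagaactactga

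Il22 has a near-identical neighbour, Iltifb, at chr10:118289629-118295038 on the minus strand. Their coding sequences, of 537 bases each, differ at 9 bases (98.3% identity), and 29.9% of the 75-base stretches of Il22 transcripts, the length of a read, occur in Iltifb too. Coding bases 101 to 260 of Il22 are shown because they hold 6 of the 9 differences, in capitals, and show how few bases tell the pair apart.

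Il22 coding bases: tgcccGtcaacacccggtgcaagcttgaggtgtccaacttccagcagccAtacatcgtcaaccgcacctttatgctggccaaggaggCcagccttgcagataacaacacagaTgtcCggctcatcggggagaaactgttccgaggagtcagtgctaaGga

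Iltifb had 0 counts in 13 of 14 libraries and 2 counts in KO replicate 1. How the counting treated reads that fit both genes was not stated, so the Il22 counts are uncertain to that extent. Of the other members, Il17f shared 0.411% and Ahr 0.86% of such stretches with other genes, and the rest shared none. Ahr exons overlap those of Gm48236, on the opposite strand, over 2.06% of their bases.

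Levels were compared between genes as TPM, which are corrected for gene length and add up to 1e+06 in each library. In unstimulated ILC2s, Ahr led with 19.5 ± 1.39 TPM (n = 4), followed by Il1r1 at 7.69 ± 1.52, Ccr6 at 5.54 ± 1.16 and Il23r at 4.15 ± 1.10 TPM. Il22 was at 1.84 ± 2.31, Il17f at 0.576 ± 0.308 and Il17a at 0.187 ± 0.206 TPM. Only the step from Ahr to Il1r1 exceeded the spread between these libraries, since every lower pair of neighbours in the order overlapped. After IL-33, Il22 headed the order with 18.1 ± 9.67 TPM and its range overlapped that of Ahr at 16.2 ± 3.04 TPM. In KO libraries the pair again overlapped at the top, with Il22 at 42.2 ± 31.1 and Ahr at 39.0 ± 2.74 TPM (n = 3). In WT replicates 1 and 3, Ahr (30.5 ± 0.0293 TPM, n = 2) stood above Il22 (11.3 ± 2.90 TPM) without overlap. Il17a had the lowest mean in each of the 4 groups, counting WT replicates 1 and 3 alone, and was under 0.5 TPM in every library. Il17f was 6th in 3 groups and 5th in KO, where it was at 2.36 ± 1.61 TPM beside Ccr6 at 2.36 ± 0.599 TPM.

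**Figure D1:**
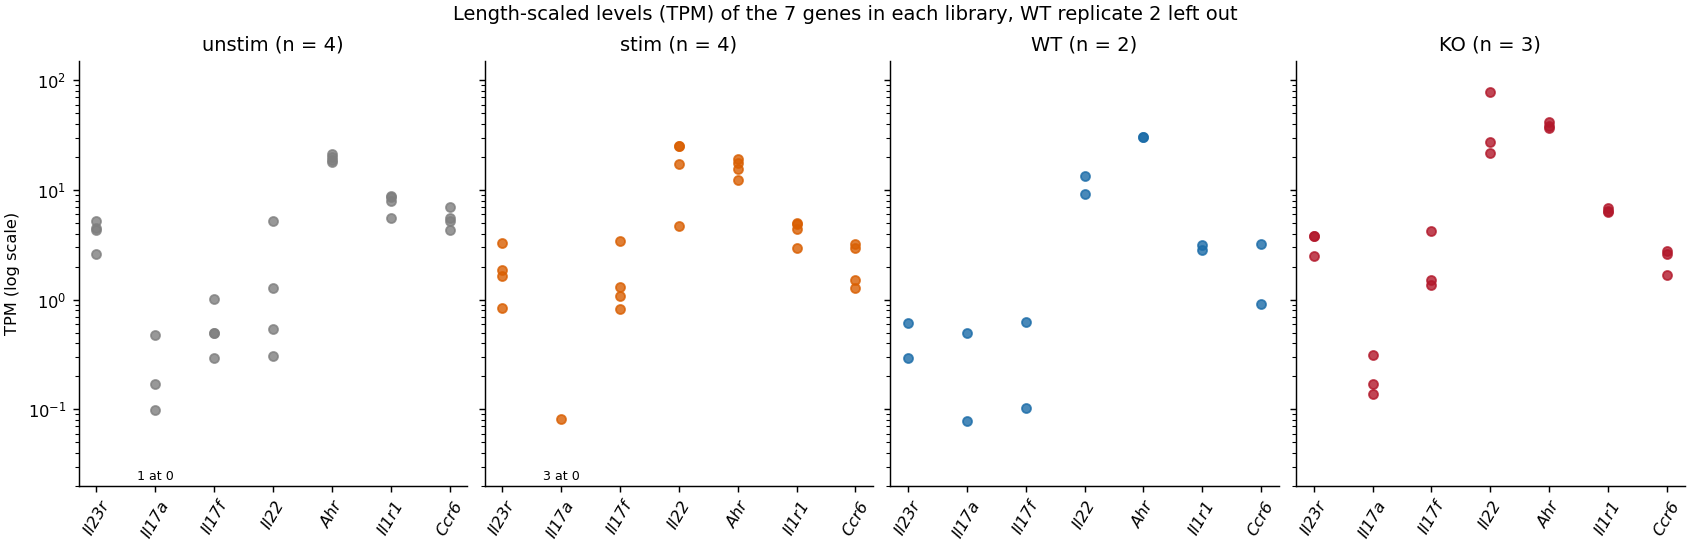
TPM on a log scale (y) of the 7 genes (x) in each library, 1 point per library, in unstimulated (unstim), IL-33 stimulated (stim), WT and KO ILC2s; WT replicate 2 is left out and libraries at 0 are written as a number. Ahr is the top gene in unstimulated cells at 19.5 TPM on average, Il22 joins it in stimulated and KO cells, and Il17a is at the bottom.

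Across the 4 groups, the order of the levels differed from gene to gene, in TPM and without WT replicate 2. The groups come from 2 experiments and this order was not tested. Il23r was highest in unstimulated cells, then in KO (3.35 ± 0.722 TPM), stimulated (1.90 ± 1.00) and WT cells (0.452 ± 0.228), and only WT was separate from its neighbour in the order. Il1r1 followed the same order of groups, with KO (6.53 ± 0.283 TPM) separate from stimulated cells (4.33 ± 0.933) and the last pair, stimulated and WT (2.96 ± 0.222), overlapping. Ccr6 was highest in unstimulated cells and overlapped among the other three groups. Il22 and Il17f were highest in KO cells and next in stimulated cells, with overlap between these. Ahr was highest in KO, then in WT and then in unstimulated cells, each step without overlap, while unstimulated and stimulated cells overlapped.

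The first comparison asked what IL-33 stimulation does to ILC2s. The filter on low counts kept 6 of the 7 genes, all but Il17a. With all 8 libraries, 1 of the 6 was higher after IL-33 (Il22) and 0 were lower, by edgeR's quasi-likelihood test on 15466 genes with Benjamini-Hochberg adjustment. Of all genes tested, 16.2% were higher and 16.1% lower, or 32.3% in either direction. At an unadjusted p below 0.05, 2 members were higher (Il17f and Il22) and 1 was lower (Ccr6). At the same threshold 6789 of the 15466 genes passed in either direction. DESeq2 called these 3 members with adjustment, where it called 19.5% of 17027 genes higher and 18.8% lower, or 38.3% in either direction. Without stim replicate 3, 2 members were higher (Il17f and Il22) and 2 lower (Il1r1 and Ccr6), where 27.5% of 15733 genes were higher and 29.7% lower. DESeq2 without that library called 1 higher (Il22) and 2 lower (Il1r1 and Ccr6), where it called 23.3% of 19683 genes higher and 21.8% lower, or 45.1% in either direction. The median log2 fold change of the 6 genes was -0.22, against 0.06 for all genes tested.

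Among the cytokines, Il22, which acts on epithelial cells, moved most. It had 3, 14, 4 and 52 counts in the unstimulated libraries (0.104, 0.401, 0.170 and 1.64 CPM) and 203, 305, 20 and 294 counts in the stimulated ones (6.67, 9.88, 1.97 and 10.4 CPM). The groups did not overlap, and the nearest libraries were unstim replicate 4, the highest of its group, and stim replicate 3, the lowest of its own. By edgeR its log2 fold change was 3.63 ± 0.94 (SE), with an adjusted p of 0.0200. Without stim replicate 3 it was 3.90 ± 0.59, with an adjusted p of 0.000321. The call was lost when unstim replicate 2 (adjusted p = 0.0558) or unstim replicate 3 (adjusted p = 0.0560) was left out, with log2 fold changes of 3.53 and 3.33.

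Il17f encodes a cytokine that recruits neutrophils. Its counts were 18, 10, 4 and 9 in unstimulated and 23, 18, 27 and 28 in stimulated libraries, or 0.625, 0.286, 0.170 and 0.284 CPM against 0.756, 0.583, 2.66 and 0.991 CPM. The groups overlapped at unstim replicate 1 and stim replicate 2, and stim replicate 3 stood far above the rest. Each stimulated library was above the unstimulated library of the same number. On the log2 scale the difference was 1.80 ± 0.61 with all libraries (adjusted p = 0.0540) and 1.16 ± 0.43 without stim replicate 3 (adjusted p = 0.0408). It was called as well without unstim replicate 1, at 2.36 (adjusted p = 0.0415). Il17a, the best known cytokine of the type 17 response, had 1, 2, 0 and 5 counts in unstimulated libraries and 0, 0, 0 and 1 in stimulated ones. The low-count filter removed it, edgeR without that filter did not call it, and no direction can be read from these counts.

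Of the receptors, Il23r, the subunit particular to the IL-23 receptor, had 57, 106, 75 and 116 counts (1.98, 3.03, 3.19 and 3.66 CPM) before and 22, 88, 18 and 43 counts (0.723, 2.85, 1.77 and 1.52 CPM) after IL-33. The groups overlapped, with unstim replicate 1 below stim replicate 2. Its log2 fold change of -0.79 ± 0.42 had a 95% interval from -1.75 to 0.18 (adjusted p = 0.178), and without stim replicate 3 it was -0.80 ± 0.40 (adjusted p = 0.113). Il1r1, the signalling receptor of IL-1, was at 15.2, 9.99, 16.1 and 15.3 CPM in unstimulated and 10.9, 6.67, 12.0 and 10.6 CPM in stimulated libraries. Replicate 2 was the lowest library of each group, and the groups overlapped only through the unstimulated one. Between the groups the log2 fold change was -0.50 ± 0.23 (adjusted p = 0.134) and, without stim replicate 3, -0.59 ± 0.21 (adjusted p = 0.0331).

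The transcription factor Ahr was at 33.9, 33.0, 37.4 and 34.4 CPM in unstimulated and 33.3, 38.4, 28.8 and 44.5 CPM in stimulated libraries, and the unstimulated values fell within the stimulated range. Its log2 fold change was 0.06 ± 0.14 with a 95% interval from -0.25 to 0.38 (adjusted p = 0.735), against a median of 0.06 for all genes tested. With library size alone it was -0.10 and on log2(TPM + 1) it was -0.27, scalings that moved the median of all genes to -0.10 and -0.25, so that Ahr kept close to the median. Ccr6, the chemokine receptor, was at 2.64, 4.09, 3.23 and 2.99 CPM in unstimulated and 1.05, 2.30, 0.985 and 2.27 CPM in stimulated libraries. Every stimulated library was below every unstimulated one. For Ccr6 the log2 fold change was -0.96 ± 0.36 (adjusted p = 0.0744) with all libraries and -0.79 ± 0.29 (adjusted p = 0.0377) without stim replicate 3.

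**Figure D2:**
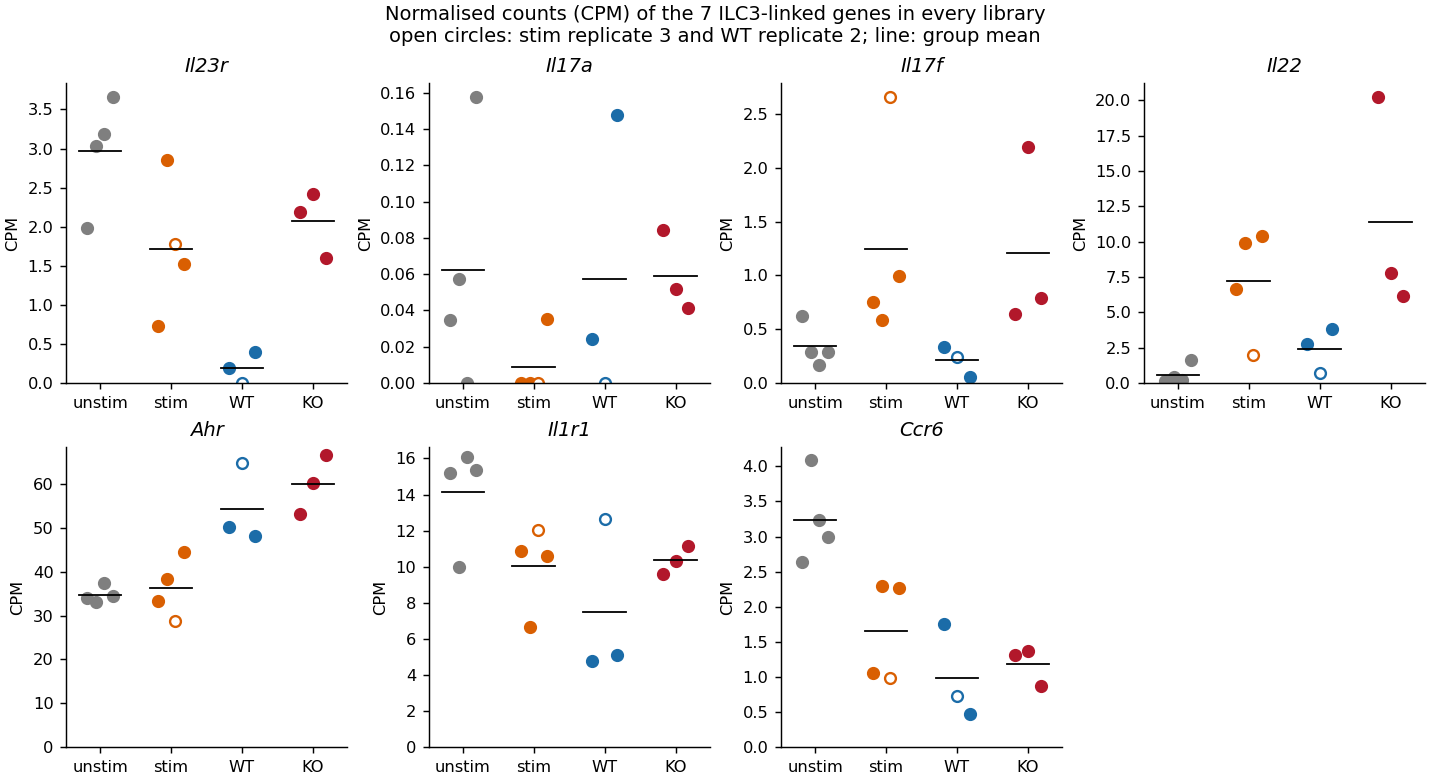
CPM (y, linear, from 0, a scale of its own for each gene) of the 7 genes in every library of the 4 groups (x), with the group mean as a line and stim replicate 3 and WT replicate 2 as open circles. Il22 rises from at most 1.64 CPM to at least 1.97 CPM after IL-33, and Il23r is measured at up to 0.391 CPM in WT, where the 0 of WT replicate 2 allows up to 0.731 CPM, and at 1.60 CPM or more in KO.

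The genes around the members were read from lists for each role. Counts of these lists stand against 16.2% of all genes higher and 16.1% lower with all libraries. Without stim replicate 3 these shares were 27.5% and 29.7%. Of 11 type 3 transcription factors, 4 were higher, led by Irf4 at 2.42 and Batf at 1.27 on the log2 scale, and 2 were lower, Tcf7 at -1.32 and Id2 at -0.37. In the IL-23 pathway 1 of the 6 genes tested was higher, the kinase gene Jak2 at 1.54, and 0 were lower. In the IL-1 pathway 1 of 13 was higher, Irak3, an inhibitor of the signal, at 1.17. The kinase genes Irak4 (-1.20), Irak2 (-0.74) and Irak1 (-0.57) of that pathway were lower. Of the 6 IL-17 receptors and family genes tested, 4 were lower and 0 higher, led by Il17rb, the IL-25 receptor subunit, at -3.07 ± 0.31 (adjusted p = 0.000230). Of the 11 AHR pathway genes tested, 2 were lower, Cyp1a1, the classical AHR target, at -1.59 and Ahrr, the AHR repressor, at -1.08, and 1, Hsp90ab1, was higher. Of 12 other ILC3 surface and effector genes, 2 were higher, Csf2, which encodes the cytokine GM-CSF, at 5.88 and Lta, a lymphotoxin gene, at 2.56. In that list 4 were lower, among them Ltb, the other lymphotoxin subunit, at -1.50 and Cd4 at -1.09. Il10rb, a subunit of the IL-22 receptor, was lower at -0.61, while Il22ra1, Il22ra2 and the CCR6 ligand gene Ccl20 had 0 counts in all 8 libraries. Without stim replicate 3 the counts higher and lower were 5 and 3 for the transcription factors, 3 and 0 for the IL-23 pathway, 3 and 4 for the IL-1 pathway, 0 and 5 for the IL-17 list, 1 and 5 for the AHR pathway and 3 and 6 for the other ILC3 genes, in a fit that called 57.2% of all genes.

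All 15 ILC2 markers were called after IL-33, 5 of them higher and 10 lower. Of all genes tested with all libraries, 16.2% were higher and 16.1% lower, which applies to the marker lists below too. The higher ones were led by the ILC2 cytokine genes Il13 at 6.68, Il5 at 4.98 and Areg at 3.36, and the lower ones by Il17rb. Gata3 was lower at -0.69 ± 0.12 (adjusted p = 0.00273). Without stim replicate 3 the counts were the same. Markers of other cell types moved in the same comparison. The summed level of 10 gamma delta T cell markers was 580 to 614 CPM in unstimulated and 59.8 to 79.6 CPM in stimulated libraries, with 5 of the 9 tested lower and 0 higher. Most of that sum was Tcrg-C1, at 344 ± 13.5 CPM in unstimulated cells, and Tcrg-C4, at 209 ± 10.1 CPM, while the delta chain gene Trdc was at 7.07 ± 2.22 CPM. Transcripts of the gamma chain constant genes are known in ILC2s too. Tcrg-V6, a chain of IL-17-producing gamma delta T cells, was not tested. The summed level of 10 T cell markers was 202 to 230 CPM before and 56.3 to 83.6 CPM after IL-33, with 6 lower and 0 higher. That of 12 epithelial and stromal markers was 502 to 821 CPM before and 284 to 506 CPM after, with 4 lower and 1 higher of 8 tested, beside the Il1r1 difference of -0.50, which was not called with all libraries. The summed level of 6 B cell markers was 27.2 to 33.7 CPM before and 21.1 to 33.5 CPM after IL-33. Of the 3 tested, 1 was higher, Cd79b at 0.53, and 0 were lower, while Ms4a1 and Pax5 were at 3 counts or fewer in all 8 libraries. Without stim replicate 3, 7 gamma delta T cell, 7 T cell and 6 epithelial and stromal markers were lower, where 29.7% of all genes were lower. The lineage-, CD3- gate is meant to remove T cells. The part of these cells in the Il23r, Il1r1 and Ccr6 values was not tested. In bulk RNA, fewer cells of a type and less RNA per cell cannot be told apart.

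**Figure D3:**
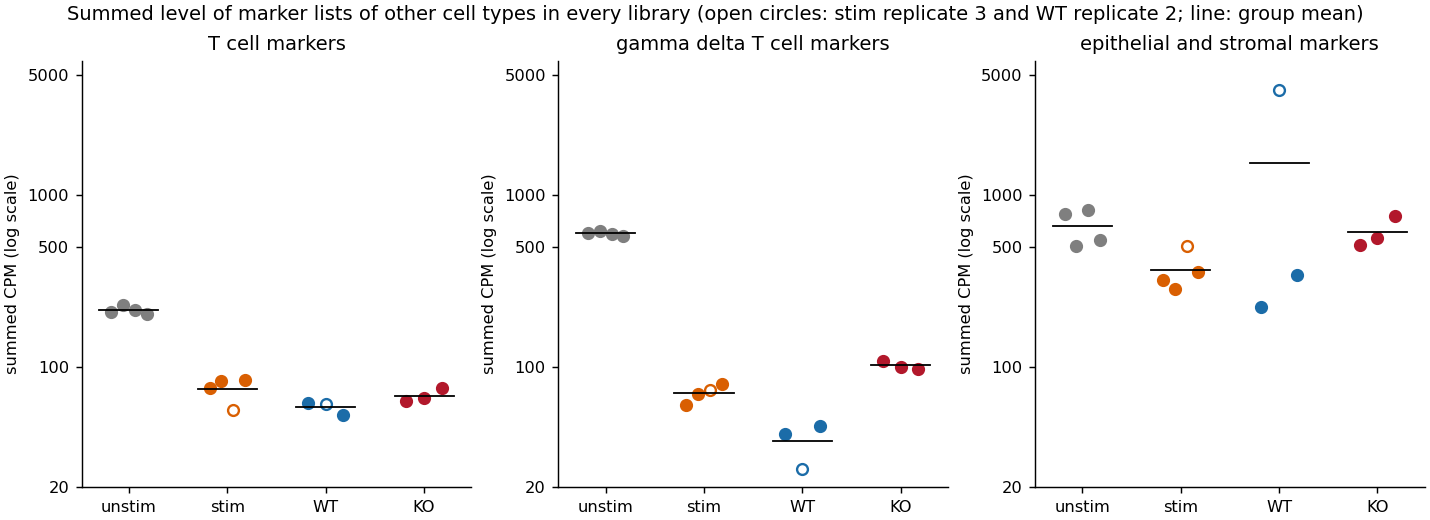
Summed CPM on a log scale (y) of markers of T cells, gamma delta T cells and epithelial and stromal cells in every library of the 4 groups (x); lines are group means and open circles are stim replicate 3 and WT replicate 2. The gamma delta T cell sum is lower after IL-33 and higher in KO than in WT libraries, and WT replicate 2 stands apart at 4053 CPM of epithelial and stromal markers.

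The second comparison asked what loss of Blimp-1 does to activated ILC2s. Of the 7 members, 6 passed the filter on low counts, again all but Il17a. With all 6 libraries, 0 of the 6 were higher and 0 lower in KO by edgeR on 17335 genes, again with Benjamini-Hochberg adjustment. Of all genes tested, 0.450% were higher and 0.306% lower, or 0.756% in either direction. At an unadjusted p below 0.05, 3 members were higher (Il23r, Il17f and Il22), against 2071 of the 17335 genes in either direction. With adjustment DESeq2 called 2 of the 3 higher (Il23r and Il22). It called 3.24% of 17205 genes higher and 3.20% lower, or 6.44% in either direction. Without WT replicate 2, edgeR called 2 higher (Il23r and Il1r1) and 0 lower, where 8.25% of 17968 genes were higher and 5.72% lower. DESeq2 without that library called 5 higher, all of the 6 but Ccr6, where it called 10.6% of 18219 genes higher and 8.96% lower, or 19.6% in either direction. The median log2 fold change of the 6 genes was 1.32 with all libraries and 1.45 without WT replicate 2, against -0.02 and 0.01 for all genes tested.

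With all libraries, Il23r had the highest log2 fold change of the 6 by edgeR. It had 16, 0 and 37 counts in the WT libraries (0.193, 0 and 0.391 CPM) and 181, 187 and 155 counts in the KO libraries (2.19, 2.41 and 1.60 CPM). Every KO library was above every WT library. The 0 of WT replicate 2 allows up to 0.731 CPM, which is above the other WT libraries and below all KO libraries. For Il23r the log2 fold change was 3.00 ± 0.57 (95% interval 1.62 to 4.37, adjusted p = 0.0873). Without WT replicate 2 it was 2.82 ± 0.36 (95% interval 1.97 to 3.66, adjusted p = 0.00441).

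Il1r1 changed with the library left out. It was at 4.76, 12.7 and 5.08 CPM in WT and 9.57, 10.3 and 11.2 CPM in KO libraries. WT replicate 2, with 52 counts, was the highest of all 6, and WT replicates 1 and 3 were below every KO library. Against WT the log2 fold change was 0.56 ± 0.38 with all libraries (adjusted p = 0.652) and 1.08 ± 0.11 without WT replicate 2 (adjusted p = 0.00215). Epithelial and stromal markers moved with these values. Their sum was 222 and 343 CPM in WT replicates 1 and 3, 4053 CPM in WT replicate 2 and 509 to 749 CPM in KO libraries. Without WT replicate 2, 4 of the 10 tested were higher in KO, against 8.25% of all genes. On the log2 scale these were the epithelial gene Krt8 at 3.12, Pdgfra at 1.45, Dcn at 1.33 and Pecam1 at 1.15. The lung epithelial genes Sftpc and Scgb1a1 were at 3 counts or fewer in all 6 libraries, except for 6 counts of Scgb1a1 in KO replicate 1. The part of such cells in the Il1r1 difference was not tested.

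Of the cytokines, Il22 had 226, 3 and 358 counts in WT (2.73, 0.731 and 3.78 CPM) and 1673, 601 and 592 counts in KO libraries (20.2, 7.75 and 6.13 CPM). No KO library overlapped the WT range, and KO replicate 1 stood well above the other two KO libraries. The log2 fold change was 2.08 ± 0.62 (adjusted p = 0.241), and 1.82 ± 0.52 without WT replicate 2 (adjusted p = 0.0605). Without KO replicate 1 the log2 fold change of Il22 was 1.43 (adjusted p = 0.774). Il17f had 28, 1 and 5 counts in WT (0.338, 0.244 and 0.0528 CPM) and 53, 170 and 76 counts in KO libraries (0.640, 2.19 and 0.786 CPM). By measured CPM the groups were separate, with KO replicate 2 the highest. The value of WT replicate 2 rests on 1 count, and even the 0.731 CPM that a count of 0 allows there lies above KO replicate 1. Its log2 fold change was 2.58 ± 0.87 (adjusted p = 0.306), and 2.65 ± 0.82 without WT replicate 2 (adjusted p = 0.0748). For Il17f it was 4.01 without WT replicate 1, above the 2.76 of Il23r in that fit, 1.93 without WT replicate 3 and 1.82 without KO replicate 2. Il17a had 2, 0 and 14 counts in WT and 7, 4 and 4 counts in KO libraries. The highest Il17a count was in a WT library, and edgeR without the low-count filter did not call the gene.

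Ahr was at 50.2, 64.8 and 48.1 CPM in WT and 53.2, 60.4 and 66.6 CPM in KO libraries, with WT replicate 2 inside the KO range and the other WT libraries below it. The log2 fold change was 0.16 ± 0.15 (adjusted p = 0.751), and 0.30 ± 0.09 without WT replicate 2 (adjusted p = 0.0739). Ccr6 was at 1.75, 0.731 and 0.475 CPM in WT and 1.32, 1.37 and 0.869 CPM in KO libraries. The KO values fell within the WT range. Its log2 fold change of 0.21 ± 0.53 had a 95% interval from -1.07 to 1.49 (adjusted p = 0.933), which leaves room for a change of either sign, and without WT replicate 2 it was 0.10 ± 0.51 (adjusted p = 0.916).

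**Figure D4:**
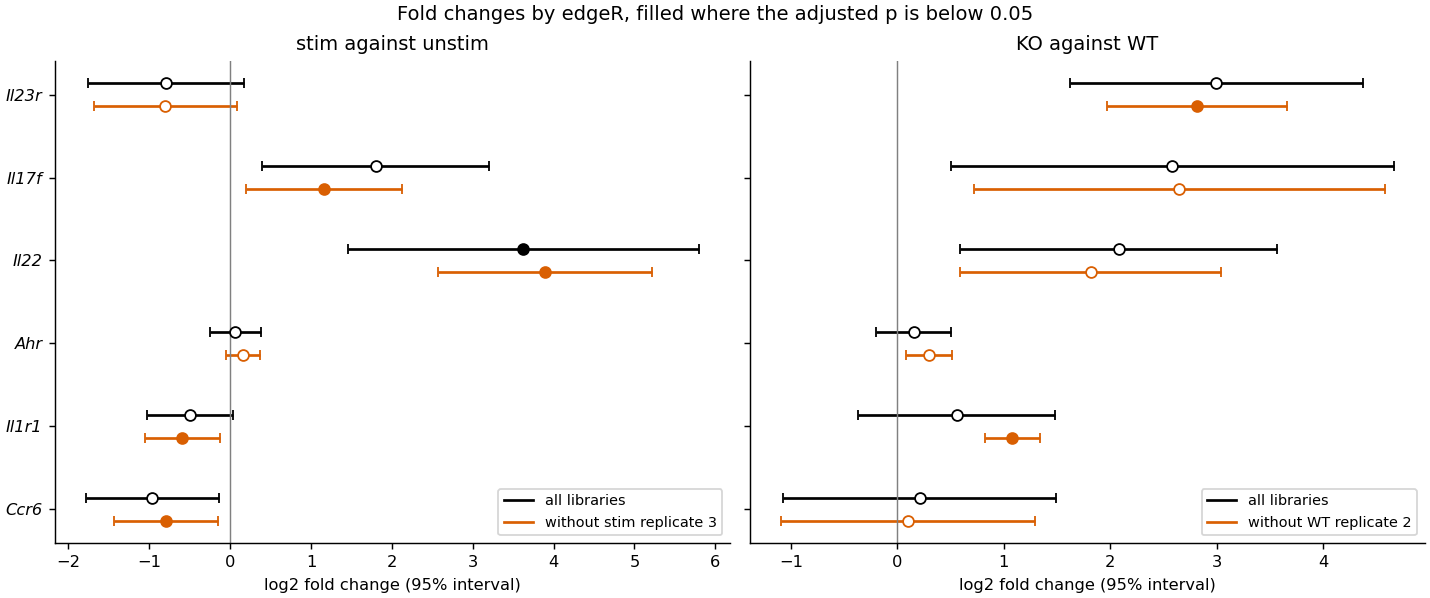
Log2 fold changes (x) with 95% intervals of the 6 members tested (y), stim against unstim on the left and KO against WT on the right, with all libraries (black) and without stim replicate 3 or WT replicate 2 (orange); filled points have an adjusted p below 0.05. Il22 is filled in both fits on the left, Il23r and Il1r1 are filled on the right only without WT replicate 2, and the intervals of Ccr6 on the right span 0.

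Called counts of the lists that follow stand against 0.450% of all genes higher and 0.306% lower with all libraries. Without WT replicate 2 these shares were 8.25% and 5.72%. Counts at an unadjusted p below 0.05 stand against 2071 of 17335 genes with all libraries. Without WT replicate 2 they stand against 5613 of 17968 genes. Gata3, the ILC2 lineage factor, had a log2 difference of -0.34 ± 0.16 (adjusted p = 0.481) with all libraries. Without WT replicate 2 it was -0.17 ± 0.07 (adjusted p = 0.136 by edgeR). Of the 15 ILC2 markers, edgeR called 0 with all libraries, where 6 had an unadjusted p below 0.05, and 3 were higher and 4 lower without WT replicate 2, led by Klrg1 at -1.01 and Icos at 0.87. Of the 11 type 3 transcription factors, edgeR called 0 with all libraries, where 5 had an unadjusted p below 0.05, and 4 were higher and 1 lower without WT replicate 2. The higher ones included Tcf7 at 1.88 and Nfkbiz, a co-activator of type 17 cytokine genes, at 0.74, and the lower one was Id2 at -0.33. Of 12 other ILC3 surface and effector genes, 2 were higher with all libraries, Ltb, the lymphotoxin subunit, at 1.82 and Gpr183 at 0.74. Without WT replicate 2, 8 were higher and 0 lower, among them Ltb at 1.77, Lta at 1.73, Nrp1 at 1.57 and Csf2 at 1.21. In the IL-23 pathway, Stat4 (0.89) and Jak2 (0.53) were higher and Socs3, an inhibitor of this signal, was lower (-0.84) without WT replicate 2, and with all libraries edgeR called 0 of the 6 tested, 3 having an unadjusted p below 0.05. In the IL-1 pathway, edgeR called 0 of 13 genes with or without WT replicate 2, where 7 and 2 had an unadjusted p below 0.05 without and with it. Of the 7 IL-17 receptors and family genes tested, edgeR called 0 with all libraries, where 0 had an unadjusted p below 0.05, and Il17re was higher (1.37) and Il17ra lower (-0.24) without WT replicate 2. In the AHR pathway, edgeR called 0 of 11 with all libraries, where 2 had an unadjusted p below 0.05, and Cyp1b1 was higher (1.21) and Aldh3a1 (-1.88), Arnt2 (-0.69) and Ptges3 (-0.24) were lower without WT replicate 2.

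Gamma delta T cell markers were at higher levels in the KO libraries of the Blimp-1 experiment. Their summed level was 25.6 to 45.2 CPM in WT and 97.3 to 109 CPM in KO libraries. With all libraries 1 of the 10 was higher, Tcrg-C1 at 1.77. Without WT replicate 2 there were 7 higher and 0 lower, among them Cd163l1 at 3.97 and Tcrg-V6 at 2.62. The 7 included the gamma chain constant genes Tcrg-C1 at 1.66 and Tcrg-C4 at 0.90. Not called in that fit were the delta chain gene Trdc at 0.83, Tcrg-C2 at 0.44 and Sox13 at -0.16. Cd163l1, a scavenger receptor gene of IL-17-producing gamma delta T cells, had 15, 0 and 49 counts in WT and 330, 508 and 585 counts in KO libraries. Its CPM were 0.181, 0 and 0.518 in WT and 3.99, 6.55 and 6.05 in KO. Tcrg-V6 was at 0.0548 ± 0.0584 CPM in WT and 0.517 ± 0.155 CPM in KO libraries (n = 3 each). The general T cell markers differed less, with a sum of 52.3 to 61.3 CPM in WT and 63.0 to 75.3 CPM in KO libraries and Cd3e at 4.94 ± 1.00 against 4.87 ± 0.401 CPM. The lineage-, CD3- gate is meant to remove these cells, and their part in the Il23r and Il17f differences was not tested.

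Members too low to judge were therefore as follows. Il17a had at most 5 counts in any library of the stimulation experiment and at most 14 in the Blimp-1 experiment, and edgeR tested it in neither comparison unless the low-count filter was dropped, when it was not called. Il17f was above the 3-count floor in all 8 libraries of the stimulation experiment but had at most 28 counts in any of them, and WT replicate 2 had 1 count. In WT replicate 2, Il23r (0 counts), Il22 (3) and Ccr6 (3) were at or below the floor. For Il23r this library gives only an upper limit, and for Il22 and Ccr6 it gives values that rest on 3 counts each. Il22 was at the floor in unstim replicate 1 as well, with 3 counts. Ahr and Il1r1 were well above the floor in every library.

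Genes with the pattern most like each member were sought among genes with a mean of at least 5 CPM, by Pearson correlation of log2 CPM, for members with a mean of at least 1 CPM. Libraries of both groups enter each value, so differences between the groups and between depths are shared by all genes, and no test is given. In the stimulation experiment (8 libraries), Il22 was closest to Nfkbiz (r = 0.99), Ccar1 (0.98) and Slc35f2 (0.98). Il1r1 was closest to Pdgfra (0.95), Ddr2 (0.95) and Col3a1 (0.93), which are genes of fibroblasts. The genes closest to Il23r were Cpne2 (0.90), Mtm1 (0.89) and Top2b (0.86). Ahr was closest to Tbc1d22a (0.98), Taf12 (0.95) and Ctu1 (0.94), and Ccr6 to Babam2 (0.95), Gm45606 (0.94) and Mpv17 (0.94). In the Blimp-1 experiment (6 libraries, WT replicate 2 included), the single closest genes were Gm35028 for Il23r (0.99), Tube1 for Il22 (0.99), Mgp for Ahr (0.97), Phlpp1 for Il1r1 (0.999) and BC052040 for Ccr6 (0.99).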

How the data were processed

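RNA-seq of 14 libraries of sorted mouse lung ILC2s was used. Per the study's methods, cDNA was made with SMART-seq v4 and Nextera XT, sequenced as 75-base pairs, trimmed with cutadapt, aligned to GRCm38 with HISAT2 and counted with Subread. The submitters' processing notes name Bowtie2, Subread and DESeq2. The strand setting was not given in the sources used here. The authors deposited raw counts and TPM per gene, and all value columns were used (0 left out). ATAC-seq data were not used here.

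Counts were fitted with edgeR 4.0.16 in R 4.3.3 (TMM, filterByExpr, quasi-likelihood test, two-sided, Benjamini-Hochberg over all genes tested, threshold 0.05), within each experiment and without a replicate term. SE and 95% intervals come from the same fit. P-values measure the spread between these libraries, within 1 experiment. Alternatives were RLE, library size alone, no filter, DESeq2 1.42.0, limma 3.58.1 on TPM (genes averaging at least 1 TPM, log2 with a pseudocount of 1 or of 0.1), a replicate block and each library left out. Fits were tested on simulated data. Likeness used log2 CPM with a prior count of 2. Genes named are all members, Gata3, Il17rb and Prdm1, up to 4 genes per list and comparison with the largest called change, and the 3 most like genes. Defining markers of other cell types, and Il10rb, Il22ra1, Il22ra2, Ccl20 and Iltifb, were named after their values were seen. The members and lists were chosen with earlier results of these data known. A few genes are not reported here. Coordinates are from GENCODE on GRCm38. Figures used matplotlib.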

Additional observations from a re-analysis of the deposited data

Results flagged for a closer look

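In the 13 groups of 4 libraries examined for a library standing apart, Il1r1 in unstim replicate 2 was the only one, at 9.99 CPM against 15.2 to 16.1 CPM in the other unstimulated libraries. Its gap to the nearest library was 0.859 of the group's range, above Dixon's critical value of 0.829 for 4 samples. Chance gives about 1 such library in 20 groups. Without that library the log2 fold change of Il1r1 after IL-33 was -0.57 (adjusted p = 0.135 by edgeR).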

How the results depend on the processing

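After IL-33, members called higher numbered 1, with 2 by DESeq2 and 0 to 2 when a library was left out. Members called lower numbered 0, with 1 by library size alone, 1 by DESeq2, 3 on log2(TPM + 1), 2 on log2(TPM + 0.1) and 0 to 2 when a library was left out. Genes higher numbered 2508, with 1805 by library size alone, 1032 and 1027 on the 2 TPM scales and 1852 to 4328 with a library left out. Genes lower numbered 2484, with 3691 by library size alone, 4655 and 4546 on the TPM scales and 1820 to 4666 with a library left out. Among called genes 50.2% were higher, with 32.8% by library size alone and 18.1% and 18.4% on the TPM scales, which moved the median of all genes to -0.10, -0.25 and -0.29. Ahr turned to -0.10 by library size alone, -0.27 and -0.28 on the TPM scales and -0.051 without stim replicate 4, within a range of -0.051 to 0.16 over the left-out libraries. In KO against WT, members called higher numbered 0, with 3 by library size alone, 2 by DESeq2 and 0 to 2 with a library left out, where the 2 came without WT replicate 2. Genes higher numbered 78, with 98 by library size alone, 557 by DESeq2, 1 on each TPM scale and 0 to 1483 with a library left out. Genes lower numbered 53, with 73 by library size alone, 551 by DESeq2, 1 and 0 on the TPM scales and 0 to 1027 with a library left out. These counts were highest without WT replicate 2, and unadjusted p-values below 0.05 numbered 2071 with all libraries. The median of all genes moved to 0.45 by library size alone, 1.28 and 1.69 on the TPM scales and -0.10 by DESeq2. Ccr6 turned to -0.19 without WT replicate 3, within a range of -0.19 to 1.12. DESeq2 without stim replicate 3, added after the data had been seen, gave 1 member higher, 2 lower and 4582 and 4297 genes. DESeq2 without WT replicate 2, added likewise, gave 5 members higher, 0 lower and 1932 and 1632 genes. The causes of these shifts were not tested. Same-numbered libraries correlated at -0.13 to 0.31 in the first experiment and -0.17 to 0.18 in the second, with 2 of 4 and 1 of 3 closest to their own number, and whether the numbers of the first mark shared mice was not stated. Il23r and Il1r1 were at lower and Il17f at higher CPM in the stimulated library of all 4 same-numbered pairs. With the replicate number as a block, 1802 genes were higher and 1898 lower after IL-33, the same 1 member was called (Il1r1 at -0.51, adjusted p = 0.0690, Il23r at -0.91, adjusted p = 0.123, and Il17f at 1.65, adjusted p = 0.149, were not), and 0 genes were called in either direction in KO against WT, where 1380 had an unadjusted p below 0.05.

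Depth limits Il17a in every group, Il22 in unstim replicate 1, and Il23r, Il17f, Il22 and Ccr6 in WT replicate 2. In KO against WT, the adjusted p of Il23r, Il17f, Il22, Il1r1 and Ahr ranged from 8.98e-14 to 0.983 over 14 alternatives. Their signs stayed positive, which says little for library size alone and the TPM scales, where Ahr was at 0.73, 1.64 and 1.89 beside medians over all genes of 0.45, 1.28 and 1.69. After IL-33, Il22 and Il17f kept a positive and Il23r, Il1r1 and Ccr6 a negative sign under all 16 alternatives, most of which did not call the latter 3 or Il17f, with Il22 at 2.82 to 4.98 and an adjusted p from 8.19e-05 to 0.0560.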
